A study of Mus musculus with 24 samples.

Results

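Cells make cholesterol from acetyl-CoA in a long series of enzyme steps, and they set the output of that series at the level of transcription. When sterols in the endoplasmic reticulum run low, the transcription factor SREBP-2 (encoded by Srebf2) is carried to the Golgi by its escort protein Scap, cut free and sent to the nucleus, where it raises the genes for cholesterol synthesis and for uptake of lipoproteins. When sterols are plentiful, the INSIG proteins hold the complex in the endoplasmic reticulum. Cartilage has no blood vessels, and chondrocytes are known both to make cholesterol and to take it up.

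The 8 genes described here were all the rows of the count table with the symbols Hmgcs1, Idi1, Fdft1, Sqle, Lss, Cyp51, Srebf2 and Insig1, out of 52178 genes. Despite the name of the set, cholesterol synthesis and uptake genes, 6 of them encode enzymes of synthesis, 1 encodes the transcription factor and 1 encodes a sterol sensor, so none encodes a receptor for uptake. Genes of uptake were therefore read from a separate list. In the GRCm38 annotation Hmgcs1 (ENSMUSG00000093930) and Idi1 (ENSMUSG00000058258) lie on chromosome 13, Sqle (ENSMUSG00000022351) and Srebf2 (ENSMUSG00000022463) on 15, Cyp51 (ENSMUSG00000001467) and Insig1 (ENSMUSG00000045294) on 5, Fdft1 (ENSMUSG00000021273) on 14 and Lss (ENSMUSG00000033105) on 10.

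RNA was measured in 24 libraries, with 4 in each of 6 groups. Hip caps, the articular cartilage of the femoral head, came from male C57/Bl6 mice aged 4 weeks (C57/BL6J in the study's methods), and each sample pooled the 2 caps of 1 mouse. Metatarsals, the cartilage rods of the growing foot, came from E15 embryos of the same strain and of unknown sex, with 6 pooled per sample. Explants were kept for 24 h, held at hydrostatic pressures of 0 (control), 5 or 50 MPa for 1 h and kept for a further 24 h before RNA was isolated. The labels write mPa, and the unit of the study's methods was used. Hip caps and metatarsals were kept in different media, so tissue, age and medium cannot be told apart, nor can any effect of sex.

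Total counts ran from 4185241 to 25104240 per library. The study left out 2 libraries as outliers, replicate 4 of the hip cap controls (HC4) and replicate 2 of the hip caps at 50 MPa (H502), so values are given over the other 22 and, where it matters, over all 24. Protein-coding genes took 27.5% to 72.4% of the counts in the 22 libraries, and 81.4% in H502. In the 10 chondrocyte markers the summed level ran from 21323 to 75834 CPM (counts scaled to the library's size and TMM factor) in hip caps and from 1699 to 4407 in metatarsals, with no marker at 0 in any group. The 8 skeletal muscle markers summed to 18.1 to 50.4 CPM in hip caps and to 434 to 2502 in metatarsals. The 8 osteoclast markers summed to 329 to 1726 CPM in hip caps and to 37.5 to 79.7 in metatarsals, and Calcr was at 0 counts in the latter. The part of these other cell types in the results was not tested, and in RNA from whole explants, more cells of a type and more RNA per cell cannot be told apart.

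All 8 genes were well above the detection limit. The lowest count in any of the 22 libraries was 29, for Idi1, and the highest was 2557, for Srebf2, and all 8 passed the filter on low counts that left 21283 genes for testing. The estimated counts of Fdft1, Idi1 and Hmgcs1 depend most on how reads were divided, since 31.9%, 27.1% and 13.1% of the 31-base words of their transcripts also occur in transcripts of other genes, against at most 3.88% for the other 5. Levels between genes were compared per kilobase of the principal transcript. In hip caps (n = 10 libraries) the order was Srebf2 with 25.8 ± 6.44 CPM per kb (SD), Insig1 with 20.0 ± 5.86 and Hmgcs1 with 15.3 ± 1.99, and then a lower set from Sqle (7.04 ± 0.494) through Cyp51, Lss and Fdft1 to Idi1 (4.20 ± 1.03). The only gap between neighbours in that order lay between Hmgcs1 and Sqle, and all other neighbours had overlapping values. In metatarsals (n = 12) Srebf2 with 10.1 ± 1.35 CPM per kb and Hmgcs1 with 8.14 ± 0.474 came first and overlapped. Insig1 followed at 4.79 ± 0.556 CPM per kb, apart from Hmgcs1 and overlapping with Lss at 4.78 ± 0.449. Idi1, at 1.81 ± 0.322 CPM per kb, was again the lowest and lay apart from its neighbour Fdft1. Insig1 thus stood beside Srebf2 at the head of the set in hip caps and among the enzymes of intermediate level in metatarsals.

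**Figure D1:**
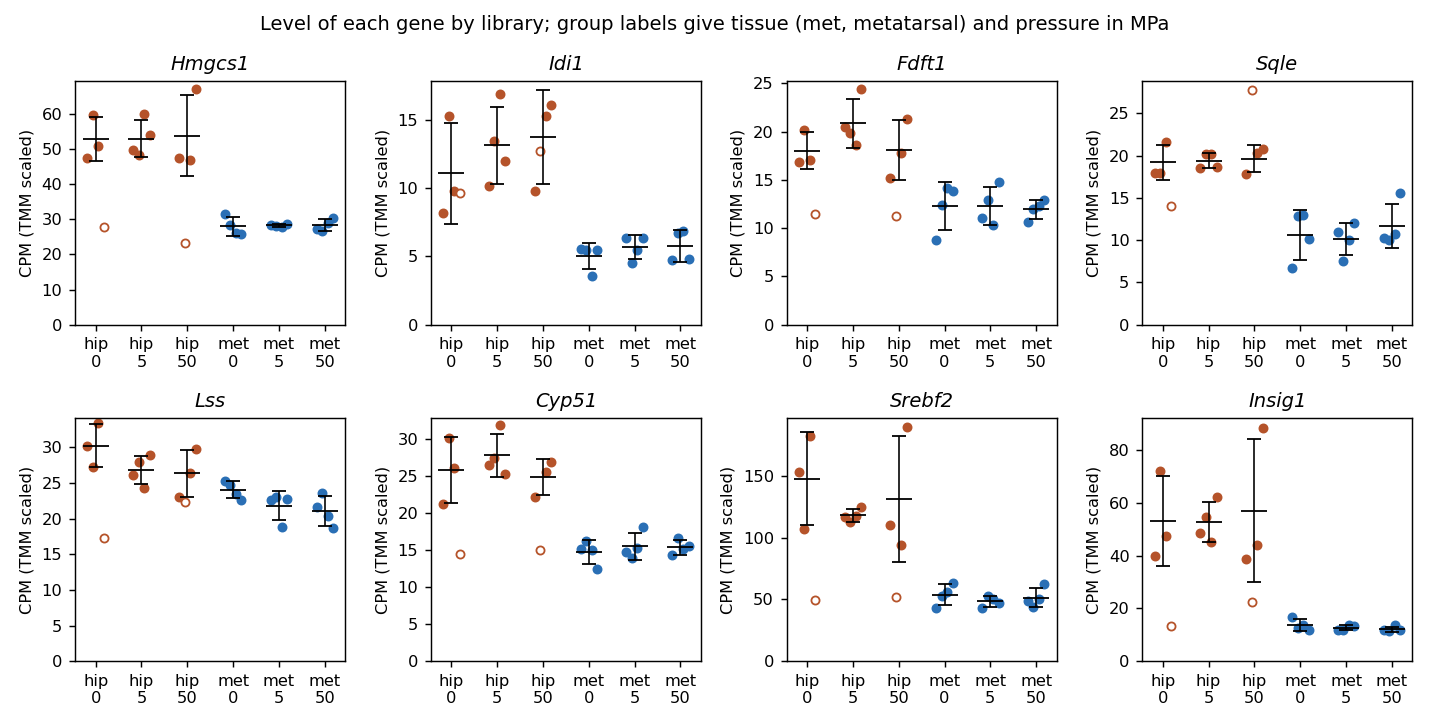
Level of each of the 8 genes in CPM (y axis, from 0) in every library of the 6 groups (x axis). Filled points are the 22 libraries used, bars are the mean and SD of those, and open points are HC4 and H502, scaled in a fit of all 24 libraries. The filled points of the hip caps lie above those of the metatarsals in all panels but that of Lss, where the ranges overlap. Most open points of the hip caps lie nearer to the metatarsals, and with them included the tissues are apart only for Idi1.

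Hip caps and metatarsals were compared at each pressure, which asks how the articular cartilage and the growth plate model differ in these genes. The 5 MPa groups give the plainest view, because all 8 of their libraries shared a library type and, as read from the study's clustering plot, a sequencing run. There, 8 of the 8 genes were higher in hip caps (adjusted p at most 0.05, edgeR's quasi-likelihood test with Benjamini-Hochberg adjustment over all genes), against 18.8% of all genes tested. The 4 hip caps also lay above the 4 metatarsals without overlap for 8 of 8 genes, which held for 19.2% of all genes. The median log2 fold change of the 8 genes was 0.92, and that of all genes was -0.08.

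The feedback gene differed most. Insig1, which encodes the sensor that retains SREBP-2 when sterols are plentiful and is itself a target of SREBP-2, had 48.6, 54.6, 45.2 and 62.1 CPM in the hip caps at 5 MPa and 11.99, 11.9, 13.7 and 13.3 in the metatarsals. The groups lay far apart, with every hip cap above every metatarsal. The log2 fold change was 2.05 (SE 0.21, 95% confidence interval 1.61 to 2.48, adjusted p = 1.05e-07 from edgeR), or 4.14-fold, and 4.12% of all genes had a higher one. In controls Insig1 had 39.7, 72.1 and 47.3 CPM in hip caps and 16.8, 12.6, 13.9 and 11.97 in metatarsals. At 50 MPa hip caps had 38.8, 44.0 and 88.2 CPM of it and metatarsals 11.8, 11.5, 13.6 and 11.9. Insig1 thus stayed apart between the tissues in these groups too, with log2 fold changes of 1.81 (SE 0.31, adjusted p = 0.000130) in controls and 2.19 (SE 0.33, adjusted p = 5.90e-05) at 50 MPa in the same edgeR fit.

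Srebf2, the gene of the transcription factor itself, had 116, 113, 118 and 125 CPM in hip caps at 5 MPa and 42.8, 52.7, 50.6 and 47.4 in metatarsals. Its log2 fold change was 1.28 (SE 0.17, adjusted p = 2.80e-06 from edgeR). Hip cap controls had 153, 107 and 182 CPM and metatarsal controls had 43.1, 52.4, 55.8 and 63.5, and at 50 MPa hip caps had 110, 94.1 and 189 CPM and metatarsals 48.9, 44.1, 50.5 and 62.6. Hip caps were above metatarsals at all 3 pressures, and within the hip caps the controls and the 50 MPa group were spread far more widely than the 5 MPa group. The log2 fold change was 1.48 (SE 0.24, adjusted p = 0.000103) in controls and 1.13 (SE 0.25, adjusted p = 0.00261) at 50 MPa, both from edgeR.

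The enzymes differed less at 5 MPa. Hmgcs1, which joins acetyl-CoA and acetoacetyl-CoA at the start of the pathway, had 49.8, 48.3, 60.0 and 53.9 CPM in hip caps at 5 MPa and 28.4, 28.0, 27.8 and 28.7 in metatarsals. Its metatarsal values hardly differed from each other. The log2 fold change was 0.91 (SE 0.12, adjusted p = 2.36e-06 from edgeR). Idi1, which isomerizes the isoprene unit that is built into longer chains, had 10.2, 13.4, 16.9 and 12.01 CPM in hip caps and 6.38, 4.49, 5.48 and 6.33 in metatarsals at 5 MPa, a log2 fold change of 1.21 (SE 0.22, adjusted p = 0.000155 from edgeR). It was the lowest of the 8 genes in both tissues, but its difference between them was the third in size. In controls the log2 fold change of Idi1 was 1.21 (SE 0.34), and at 50 MPa it was 1.44 (SE 0.36), above that of Srebf2, with adjusted p-values from edgeR of 0.0101 and 0.00599.

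The steps that commit the pathway to sterols followed. At 5 MPa the log2 fold change was 0.76 (SE 0.15) for Fdft1 (squalene synthase). Sqle (squalene epoxidase) had 0.94 (SE 0.16) and Cyp51, which removes a methyl group from lanosterol, had 0.84 (SE 0.13), and the adjusted p-values of the 3 genes from edgeR were 0.000387, 5.84e-05 and 2.45e-05. Over all pressures Fdft1 ran from 15.2 to 24.5 CPM (median 19.2) in hip caps and from 8.80 to 14.8 (median 12.4) in metatarsals. Sqle ran from 17.8 to 21.6 CPM in hip caps and from 6.70 to 15.6 in metatarsals, and Cyp51 from 21.2 to 31.9 and from 12.4 to 18.1. No range of these 3 genes overlapped between the tissues.

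Lss (lanosterol synthase), which closes the ring of the sterol and stands between Sqle and Cyp51 in the pathway, was the exception. It had 26.1, 28.0, 24.3 and 28.9 CPM in hip caps at 5 MPa and 22.7, 23.1, 18.8 and 22.8 in metatarsals. These groups were close but did not overlap, and the log2 fold change of 0.30 (SE 0.11, adjusted p = 0.0471 from edgeR) was only just past the threshold. In controls it was 0.38 (SE 0.17, adjusted p = 0.0861) and at 50 MPa 0.35 (SE 0.18, adjusted p = 0.194), and neither passed in the edgeR fit. At 50 MPa the lowest hip cap, at 23.1 CPM, was below the highest metatarsal, at 23.6.

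In controls 7 of the 8 genes were called higher in hip caps, against 14.1% of all genes, and at 50 MPa 6 of 8 were, against 10.1%. Beside Lss, Sqle did not pass at 50 MPa, with a log2 fold change of 0.55 (SE 0.23, adjusted p = 0.107 from edgeR). Fdft1 only just passed there, at 0.66 (SE 0.23, adjusted p = 0.0498 from edgeR). It was called at 50 MPa in 7 of 35 alternative fits. DESeq2 called 5 of the 8 genes at that pressure. The 10 hip caps lay above the 12 metatarsals over all pressures for 7 of the 8 genes, which held for 8.15% of all genes, and Lss was the exception. With HC4 and H502 included, only Idi1 kept the tissues apart, and the share of all genes that did so was not counted. On the scale of all 24 libraries HC4 had 13.3 CPM of Insig1, 49.9 of Srebf2 and 27.7 of Hmgcs1, within the range of the metatarsals, and H502 had 22.5, 52.3 and 23.4.

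Single libraries and the scaling decided part of these counts. The control comparison leans on metatarsal control replicate 1 (MC1), which shares the sequencing run of the hip cap controls, and without MC1 2 of 8 genes were called, Srebf2 and Insig1. The comparison at 50 MPa leans in the same way on metatarsal replicate 4 at 50 MPa (M504), and without it 1 gene was called, Sqle, and Lss turned to -0.11. Calls over all genes fell too. Without MC1 1204 of 21336 genes were higher in controls, against 2994 of 21283 in the fit of 22 libraries. Without M504 570 of 21113 were higher at 50 MPa, against 2160 of 21283. The median of the 8 genes was 0.81 in controls without MC1 and 1.24 at 50 MPa without M504. At 5 MPa 7 or 8 genes were called whichever library was left out. TMM factors set the typical gene at about the same level in both tissues. With library sizes alone the median of all genes moved to -0.97, -0.70 and -0.90 in controls, at 5 MPa and at 50 MPa, and 1, 2 and 1 of the 8 genes were called. The sign of Hmgcs1, Fdft1, Cyp51 and Lss then turned in controls, that of Lss at 5 MPa, and that of these 4 genes and Sqle at 50 MPa, whereas Insig1 was still called in each of the 3 comparisons.

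**Figure D2:**
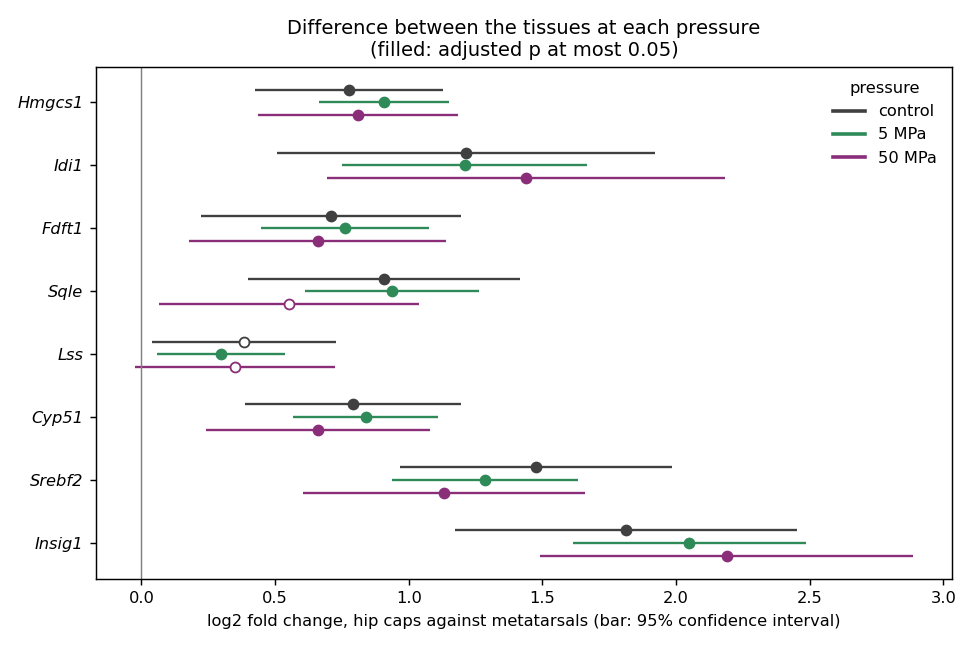
Log2 fold change of hip caps against metatarsals (x axis) for the 8 genes (y axis) in controls, at 5 MPa and at 50 MPa, with 95% confidence intervals from the edgeR fit. Filled points have an adjusted p of at most 0.05. All points lie above 0, with Insig1 farthest (1.81, 2.05 and 2.19) and Lss nearest (0.38, 0.30 and 0.35).

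A measure that no scaling can alter is the make-up of the set within a library, the log2 CPM of a gene minus the mean over the 8 genes of that library. By this measure Insig1 was at 0.70 ± 0.25 (SD, n = 10) in hip caps and at -0.32 ± 0.18 (n = 12) in metatarsals, a difference of 1.02. Lss went the other way, with -0.22 ± 0.17 in hip caps and 0.48 ± 0.16 in metatarsals, a difference of -0.70. These were the only members of the 8 whose libraries did not overlap between the tissues, and in both cases the 5 MPa groups alone gave nearly the same differences, 1.00 and -0.74. With HC4 and H502 included Insig1 differed by 0.88 and overlapped, and Lss by -0.65 without overlap. The other 6 genes differed by between -0.35 (Fdft1) and 0.32 (Srebf2), with overlap. Since each gene is set against the mean of the 8, a high gene lowers the values of the others. The log2 fold changes of Lss itself were 0.38, 0.30 and 0.35 in controls, at 5 MPa and at 50 MPa in the edgeR fit.

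The ratio of Insig1 to Hmgcs1 within a library shows the same on a linear scale. It had a mean of 0.99, 1.00 and 1.02 in hip caps as controls, at 5 MPa and at 50 MPa, and of 0.49, 0.45 and 0.43 in metatarsals. Over the 22 libraries it ran from 0.753 to 1.31 in hip caps and from 0.392 to 0.533 in metatarsals. HC4, with 0.481, was the exception among all 24. In contrast, the ratio of Hmgcs1 to Cyp51 was 2.03 ± 0.222 (SD, n = 10) in hip caps and 1.87 ± 0.168 (n = 12) in metatarsals, with overlap. These measures were chosen after the levels had been seen and are given as a description.

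**Figure D3:**
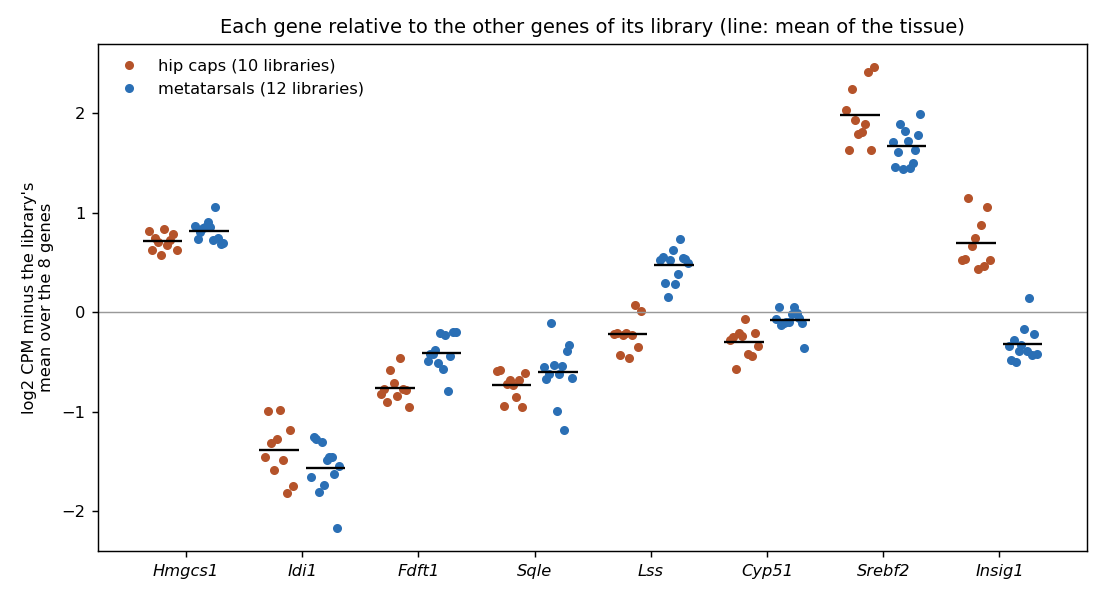
Log2 CPM of each gene minus the mean over the 8 genes of the same library (y axis) in hip caps and metatarsals, 1 point per library of the 22 used, with the mean of each tissue as a line. The tissues are apart for Insig1, higher in hip caps, and for Lss, lower in hip caps, and overlap for the other 6 genes.

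SREBP-2 binds short sterol regulatory elements near the start of its targets, as a rule beside sites of the factors NF-Y and SP1. RefSeq promoters (GRCm38.p6, 250 bases before to 50 after the start) were at hand for 6 of the 8 genes. They were searched on both strands for the core of the element (TCACNCCA), the NF-Y box (CCAAT) and the GC box of SP1 (GGGCGG), all of which can share letters only at their ends. The core was found in 2 of the 6, Hmgcs1 and Srebf2, and in 4.36% of all promoters of this length. The NF-Y box was found in all 6 (37.4% of all promoters), and the GC box in all 6 as well (35.7%). The promoters of the 2 genes with the core and of Insig1, the gene that differed most, are shown with all 3 motifs in capitals, on either strand.
Hmgcs1, chr13:119690101-119690400 (+): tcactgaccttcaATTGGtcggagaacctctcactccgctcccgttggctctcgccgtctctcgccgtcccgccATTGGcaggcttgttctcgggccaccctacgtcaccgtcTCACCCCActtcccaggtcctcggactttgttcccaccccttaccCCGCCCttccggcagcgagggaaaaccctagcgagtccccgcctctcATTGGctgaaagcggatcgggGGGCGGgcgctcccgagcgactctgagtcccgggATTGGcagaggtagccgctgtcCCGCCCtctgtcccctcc
Srebf2, chr15:82147019-82147318 (+): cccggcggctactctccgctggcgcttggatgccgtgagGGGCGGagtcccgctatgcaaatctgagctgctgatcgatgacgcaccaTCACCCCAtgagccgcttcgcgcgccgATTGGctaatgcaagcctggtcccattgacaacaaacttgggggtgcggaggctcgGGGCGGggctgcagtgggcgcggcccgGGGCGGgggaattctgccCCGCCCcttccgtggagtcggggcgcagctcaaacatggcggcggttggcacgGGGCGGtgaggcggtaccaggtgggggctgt
Insig1, chr5:28071162-28071461 (+): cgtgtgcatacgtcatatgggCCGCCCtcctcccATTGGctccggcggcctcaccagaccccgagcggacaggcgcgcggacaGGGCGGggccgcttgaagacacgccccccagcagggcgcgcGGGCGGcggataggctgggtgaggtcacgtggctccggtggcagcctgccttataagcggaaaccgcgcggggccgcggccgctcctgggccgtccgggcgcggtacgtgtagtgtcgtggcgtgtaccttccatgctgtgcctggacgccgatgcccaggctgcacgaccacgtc
In Hmgcs1 the core begins 137 bases before the start and in Srebf2 162 bases before it. The bases just after the start occur in an annotated transcript of Srebf2 and of Insig1 but in none of Hmgcs1. The distance given for Hmgcs1 thus depends on the RefSeq start. The window of Insig1 holds 1 NF-Y box and 3 GC boxes, and these letters of the core are not in it. A match describes the sequence and says nothing of binding in these explants.

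The rest of the pathway was read from lists. Of 15 other enzymes of cholesterol synthesis, 9 were called higher in hip caps in controls, 11 at 5 MPa and 7 at 50 MPa, and 0 were lower in each. For this and the lists that follow, the shares of all genes in controls, at 5 MPa and at 50 MPa were 14.1%, 18.8% and 10.1% higher and 15.9%, 19.1% and 9.58% lower, and the medians of all genes were -0.08, -0.08 and -0.01. Their median log2 fold changes were 0.94, 0.90 and 0.81 in the same order of pressures, close to those of the 8 genes (0.85, 0.92 and 0.74). Msmo1, which takes part in removing further methyl groups from the ring, was at 1.14 on the log2 scale at 5 MPa (SE 0.17, adjusted p = 1.30e-05 from edgeR), and Lbr, a sterol reductase of the nuclear envelope, had 0.86 (SE 0.19, adjusted p = 0.000879). Both also passed in controls and at 50 MPa.

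Of 10 genes of SREBP control, 6 were higher and 0 lower in hip caps at 5 MPa, 5 higher and 2 lower in controls, and 2 higher and 0 lower at 50 MPa. The 2 lower in controls and the 2 higher at 50 MPa are near the share of all genes, and the medians of the list were 0.38, 0.39 and 0.33 in controls, at 5 MPa and at 50 MPa. Insig2, the second INSIG gene, had 37.0 to 40.5 CPM in hip caps at 5 MPa and 12.2 to 14.9 in metatarsals. It was past the threshold at each pressure, with log2 fold changes of 1.86, 1.61 and 2.59 in controls, at 5 MPa and at 50 MPa. Both INSIG genes were thus higher in hip caps.

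Of 12 genes of uptake and transport within the cell, 5 were higher and 1 lower in controls and likewise at 5 MPa, and 6 were higher and 0 lower at 50 MPa. The medians were 0.67, 0.52 and 0.68, and the 1 lower gene is below the share of all genes. Lrp1, a large receptor that takes up lipoprotein remnants among many ligands, ran from 1496 to 2397 CPM in hip caps and from 727 to 1140 in metatarsals, with a log2 fold change of 1.13 at 5 MPa (SE 0.16, adjusted p = 1.16e-05 from edgeR). Scarb1, the receptor for high density lipoprotein, had 0.83 (SE 0.14) and Stard4, a carrier of cholesterol in the cytosol, had 0.82 (SE 0.13) at 5 MPa, and both were called at the 3 pressures.

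Of 9 genes of LXR and efflux, 2 were higher and 2 lower in controls, 4 higher and 2 lower at 5 MPa, and 0 higher and 1 lower at 50 MPa. These counts are near the shares of all genes except for the 4 higher at 5 MPa, and the medians were 0.24, 0.47 and 0.37. Abca1, which exports cholesterol to apolipoproteins, ran from 35.3 to 97.4 CPM (median 63.0) in hip caps and from 145 to 198 (median 172) in metatarsals, without overlap. Its log2 fold changes were -1.75, -1.38 and -1.07 in controls, at 5 MPa and at 50 MPa, all past the threshold. Of the listed genes named here, Insig2 and Abca1 were also called in all 3 comparisons with library sizes alone, whereas Msmo1, Scarb1, Lrp1 and Acly changed sign in at least 1 of them. The call of Abca1 went with the shift of this scaling, so it says little. Library sizes alone called 8217, 8889 and 6328 of 21283 genes lower in controls, at 5 MPa and at 50 MPa. Of 11 genes of fatty acid synthesis, the targets of SREBP-1, 5, 7 and 3 were higher and 0 lower at the respective pressures, with medians of 0.98, 0.88 and 0.44. Me1, which supplies NADPH, had 1.96, 1.85 and 1.82, and Acly, which makes the acetyl-CoA for both pathways, had 1.07, 1.00 and 0.87.

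**Figure D4:**
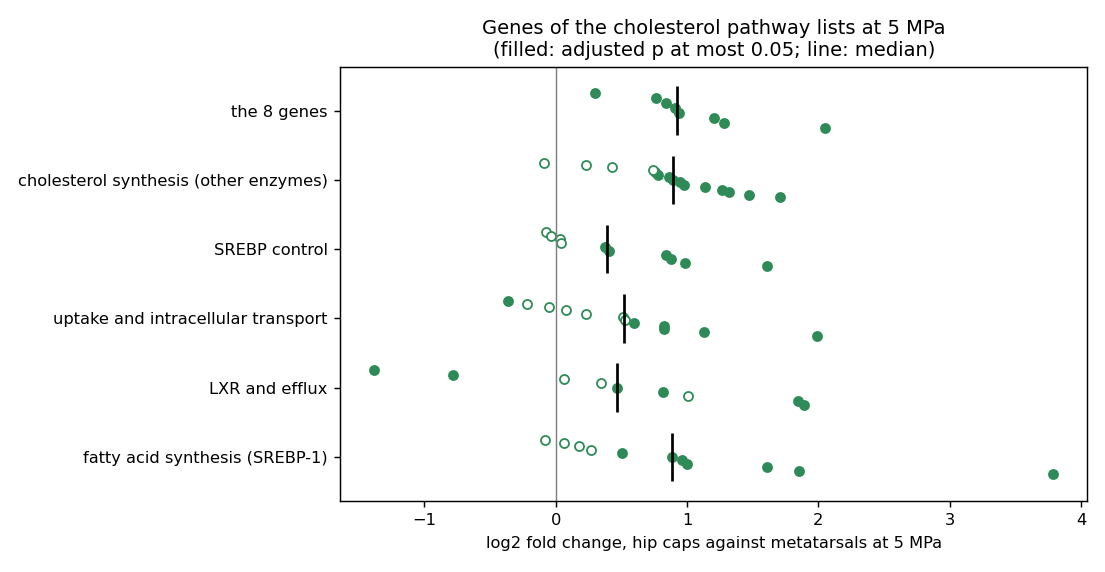
Log2 fold change of hip caps against metatarsals at 5 MPa (x axis) for the 8 genes and for the 5 lists of other genes, 1 point per gene. Filled points have an adjusted p of at most 0.05 and the line is the median of the list. The 8 genes and the other enzymes lie almost wholly above 0 (medians 0.92 and 0.90), and the lowest point of the list of LXR and efflux genes is Abca1 at -1.38.

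The effect of pressure was then tested within each tissue. No member was called at either pressure in either tissue. In hip caps 0 of 8 genes passed at 5 MPa against control, where 0.0188% of all genes did, and 0 of 8 at 50 MPa, where 5.18% did. In metatarsals 0 of 8 passed at 5 MPa and 0 of 8 at 50 MPa, and 0% of all genes did in each. At an unadjusted p under 0.05 from edgeR the counts were 0, 1, 0 and 0 in the same order. Of all 21283 genes, 3145, 4819, 689 and 828 had such a p. DESeq2 called 0 members in all 4 comparisons. Over all genes in hip caps it called 408 higher and 169 lower at 5 MPa and 1540 higher and 915 lower at 50 MPa. Both pressures were set against the same control libraries in each tissue. In hip caps the 5 MPa libraries and the controls used were of different runs, as read from the clustering plot. The run effect came from metatarsals, so MC1 and M504 had weights of 0.56 and 0.44 in the estimate at 5 MPa. The hip cap controls had -0.28, -0.28 and -0.44.

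The gene behind that count was Srebf2 at 50 MPa in hip caps, with a log2 fold change of -0.55 (SE 0.24, 95% confidence interval -1.06 to -0.04, adjusted p = 0.181 from edgeR). Its values of 110, 94.1 and 189 CPM overlapped with 153, 107 and 182 in the controls. The highest of them was replicate 4 at 50 MPa (H504). Without H504 Srebf2 was called, at -0.90 (adjusted p = 0.00909 from edgeR), and it was the only member called. The comparison leaned mostly on control replicate 3, the highest control at 182 CPM. The weight of that library was -0.76, against -0.12 for each other hip cap control. Without control replicate 3 the median log2 fold change of the set was 0.04, against -0.10 with it. That fit called 0 genes higher and 1 lower of 22039. The fall of Srebf2 thus depends on which libraries are kept. At 5 MPa Srebf2 was at -0.41 on the log2 scale (SE 0.27, adjusted p = 0.480).

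In hip caps the other genes had log2 fold changes between -0.24 (Lss) and 0.21 (Insig1) at 5 MPa and between -0.40 (Sqle) and 0.53 (Idi1) at 50 MPa. The confidence intervals of the 8 genes together reached from -0.97 to 0.98 at 5 MPa and from -1.06 to 1.23 at 50 MPa. For Hmgcs1 the interval at 50 MPa was -0.29 to 0.44 around 0.07. For Insig1 it was -0.35 to 0.92 around 0.28, with means of 53.04 ± 16.9 CPM (SD, n = 3) in controls and 56.99 ± 27.2 (n = 3) at 50 MPa. A change of a size within a gene's own interval remains compatible with these data, so an absence of change was not shown.

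Metatarsals were measured more tightly. The log2 fold changes of the 8 genes lay between -0.22 (Srebf2) and 0.21 (Idi1) at 5 MPa and between -0.21 (Srebf2) and 0.30 (Idi1) at 50 MPa, with intervals within -0.58 and 0.71 and within -0.58 and 0.80. Insig1 had 13.8 ± 2.17 CPM in controls, 12.7 ± 0.902 at 5 MPa and 12.2 ± 0.939 at 50 MPa (SD, n = 4 each). Hmgcs1 had 28.0 ± 2.64, 28.2 ± 0.422 and 28.3 ± 1.62 CPM in these groups. The ranges of the 3 groups overlapped for both genes.

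Between 50 and 5 MPa 0 of 8 genes were called in hip caps and 0 of 8 in metatarsals, where 0% of all genes were in each. The log2 fold changes ran from -0.27 to 0.32 in hip caps and from -0.06 to 0.12 in metatarsals. The hip cap groups differed in run here too, and the estimate leaned on M504 and MC1, with weights of -0.68 and -0.32. Whether the response differed between the tissues was tested as an interaction, and 0 of 8 genes passed at 5 MPa (0.0188% of all genes) and 0 of 8 at 50 MPa (0.132%), with 0 at an unadjusted p under 0.05 and 0 called by DESeq2 in these 4 comparisons. Of all 21283 genes, 1017 in hip caps and 162 in metatarsals had an unadjusted p under 0.05 from edgeR between 50 and 5 MPa. For the interaction 2381 did at 5 MPa and 3900 at 50 MPa. The interaction ran from -0.19 to 0.24 at 5 MPa and from -0.35 (Sqle) to 0.38 (Insig1) at 50 MPa. The difference between the tissues was thus not shown to change with pressure. The intervals together reached from -0.92 to 1.08 at 50 MPa, and a change within a gene's own interval remains compatible with the data.

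**Figure D5:**
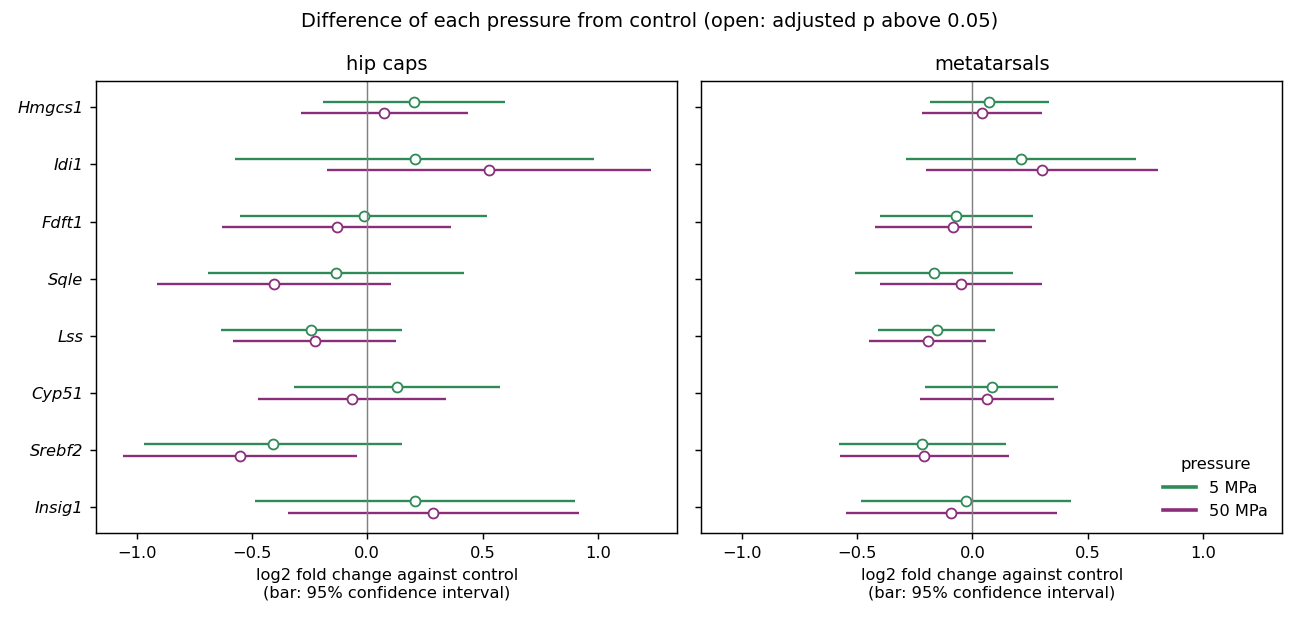
Log2 fold change of 5 MPa and of 50 MPa against control (x axis) for the 8 genes (y axis) in hip caps and in metatarsals, with 95% confidence intervals from the edgeR fit. All points are open, with an adjusted p above 0.05, and all intervals but that of Srebf2 in hip caps at 50 MPa hold 0.

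Of the 57 listed genes of the pathway 7 (12.3%) were called at 50 MPa in hip caps, 3 higher and 4 lower, where 5.18% of all genes were called, and none of them was 1 of the 15 other enzymes. These were 1 higher and 2 lower of SREBP control, 1 higher of uptake and transport, 1 higher and 1 lower of LXR and efflux, and 1 lower of fatty acid synthesis. Scap had 58.4, 33.4 and 61.3 CPM in controls and 35.1, 31.4 and 37.4 at 50 MPa, and fell by 0.98 on the log2 scale (SE 0.21, adjusted p = 0.0190 from edgeR). Srebf1 had 101, 55.2 and 112 CPM in controls and 66.4, 62.3 and 73.0 at 50 MPa, and fell by 0.85 (SE 0.22, adjusted p = 0.0332). In both genes 1 control lay at or below the level of the 50 MPa libraries, so the groups overlapped. Fads2, a fatty acid desaturase, fell by 1.07 (SE 0.29, adjusted p = 0.0382), from 62.8, 47.6 and 56.5 CPM to 29.0, 42.3 and 17.6, without overlap.

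Other listed genes rose there. Rnf139, a ubiquitin ligase linked to sterol sensing, had a log2 fold change of 1.19 (SE 0.24, adjusted p = 0.0150 from edgeR), with 11.4, 21.004 and 8.95 CPM in controls and 18.9, 25.2 and 24.8 at 50 MPa. Its groups overlapped, since the control at 21.004 CPM lay above the 50 MPa library at 18.9. Npc2, which hands cholesterol out of the lysosome, had 43.2, 48.1 and 42.4 CPM in controls and 76.6, 78.1 and 96.3 at 50 MPa, a rise of 0.87 (SE 0.22, adjusted p = 0.0302) without overlap. Ch25h, the enzyme that makes 25-hydroxycholesterol, a sterol that acts on the INSIG proteins, had 0.272, 0.636 and 0.381 CPM in controls and 4.22, 2.57 and 5.26 at 50 MPa, a log2 fold change of 3.11 (SE 0.86, adjusted p = 0.0416). The groups did not overlap, but Ch25h was near the detection limit in the controls.

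This comparison rests on hip cap control replicate 3 (HC3), the only control of the library type of the 50 MPa group, and none of these 6 genes passed without HC3 or when hip caps of run 1 were compared on their own. Over all 24 libraries none passed either. These fits called almost no gene at all, with 0 higher and 1 lower of 22039 without HC3 and 0 of 16220 in run 1. Over all 24 libraries 2 genes were higher and 0 lower of 21167. A lack of calls there is thus not particular to the 6 genes. The 6 genes were called in 19 (Ch25h) to 30 (Npc2) of 36 or 37 alternatives each. The difference in response from metatarsals did not pass for any of them, with adjusted p-values from 0.0722 (Rnf139) to 0.134. Chondrocyte markers summed to 46394 to 75834 CPM in hip cap controls and to 31594 to 36162 at 50 MPa, and osteoclast markers to 329 to 532 and to 552 to 1726. Macrophage markers summed to 26.4 to 42.0 CPM in controls and to 78.9 to 94.5 at 50 MPa, and skeletal muscle markers to 22.1 to 24.7 and to 31.6 to 50.4. The sums of these 4 lists did not overlap, and those of neutrophil, erythroid and adipocyte markers did. Gene by gene, the edgeR fit had 4 macrophage markers higher and 4 lower, and 6 muscle markers higher and 2 lower. All 10 chondrocyte markers were lower and all 7 osteoclast markers tested were higher. The part of these cell types in these changes was not tested. None of the listed genes of the pathway was called in the other 3 comparisons with control.

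Within groups the 8 genes did not move as 1 block. Over the 28 pairs of genes, the correlation of the deviations from the group mean (log2 CPM, 22 libraries) ran from -0.26 to 0.76 with a median of 0.18. In hip caps alone the median was 0.43, and in metatarsals it was -0.04. The libraries share their depth and their scaling, so these values are a description. The mean deviation of the 8 genes was farthest from 0 in H504 (0.32) and in replicate 1 at 50 MPa (-0.25), both hip caps.

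Among the 10 genes whose deviations were most like the mean of the 8 genes, out of 14085, were Rps28, Avpi1, Ssr4, Rps29, Rpl27a, Ost4, Sap18b, Psmb2 and Rps21, with Pearson correlations of 0.86 to 0.81 over 22 libraries. None of the 15 other enzymes of cholesterol synthesis was among the 10. By Spearman's measure 6 of the 10 were kept, and with all 24 libraries 0 of the 10 were.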

How the data were processed

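RNA from hip caps and metatarsals was sequenced after removal of ribosomal RNA. Per the labels and the study's methods the authors trimmed reads with Trim Galore 0.6.5, quantified them with kallisto (version not given in the sources used here) on GRCm39 transcripts and deposited estimated counts per gene, with no normalization. The sources also name DESeq2. The RNA was partly degraded, and levels can then follow transcript length and GC content.

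Here the estimated counts were rounded and tested with edgeR 4.0.16 (quasi-likelihood test, TMM factors, prior count 2) in R 4.3.3, in 1 fit of 22 libraries with terms for group, sequencing run and library type. Genes were filtered with filterByExpr, which left 21283 of 52178. Within each comparison the Benjamini-Hochberg adjustment ran over all genes tested, and a gene was called at an adjusted p of at most 0.05. HC4 and H502 were left out, as in the study's analysis. The run was read from the colours of a clustering plot and is uncertain. In hip caps the run is tied to 5 MPa, so its effect comes from the metatarsals. DESeq2 1.42.0, other scalings, filters and batch terms, and leaving out each library were tried as alternatives. The code was tested on simulated data. Protein-coding totals and the newer quasi-likelihood method were added after the data were seen.

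Gene names came from a GRCm38 annotation that is not the authors' and matched 48897 of 52178 identifiers. The 8 genes and the lists were chosen with earlier results of these data known. Listed genes are named where they passed in all 3 tissue comparisons or at 50 MPa in hip caps, and the genes most alike are the 10 with the highest correlation. Some genes that these rules would name are not reported here. No library pair agreed within sampling noise. The p-values measure the spread between samples, each 1 mouse or 1 pool.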

Additional observations from a re-analysis of the deposited data

Results flagged for a closer look

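In groups of 4 libraries, a library was singled out where its gap to the nearest other library, as a share of the group's range, was above Dixon's critical value for 95% confidence. Chance gives this in about 1 in 20 groups, and 3 of 48 groups of a gene met it, all in metatarsals and on the scale of all 24 libraries. For Idi1 in controls the ratio was 0.962, with replicate 3 lowest at 3.49 CPM. For Sqle at 50 MPa it was 0.848, with replicate 4 highest at 15.2 CPM, and for Lss at 5 MPa it was 0.911, with replicate 3 lowest at 18.2 CPM. No difference in response between the tissues passed for any of the 8 genes.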

How the results depend on the processing

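The number of the 8 genes called in the tissue comparisons depended on scaling and libraries. With library sizes alone it was 1 in controls, 2 at 5 MPa and 1 at 50 MPa, with protein-coding totals it was 2 in controls, and with all 24 libraries it was 3 in controls and 2 at 50 MPa. Leaving out 1 library gave 2 to 7 in controls, 1 to 6 at 50 MPa and, for 50 MPa against control in hip caps, 0 to 1. Calls over all genes fell as well, to 1204 higher in controls without MC1 and 570 higher at 50 MPa without M504. With all 24 libraries 2449 were higher in controls and 879 at 50 MPa. With library sizes alone the log2 fold change turned in controls for Hmgcs1 (-0.14), Fdft1 (-0.16), Cyp51 (-0.12), Lss (-0.54), Msmo1 (-0.20) and Scarb1 (-0.056), at 5 MPa for Lss (-0.32), and at 50 MPa for Hmgcs1 (-0.20), Fdft1 (-0.26), Sqle (-0.32), Lss (-0.62), Cyp51 (-0.28), Lrp1 (-0.14) and Acly (-0.077). With protein-coding totals Lss turned in controls (-0.081) and at 5 MPa (-0.050), and without replicate 4 of the metatarsals at 50 MPa it turned there (-0.11). Over all genes 2994 were higher and 3378 lower in controls, against 712 and 8217 with library sizes alone and 1593 and 6638 with protein-coding totals. At 5 MPa 4003 were higher and 4058 lower, against 1257 and 8889 and against 2314 and 7896, and at 50 MPa 2160 and 2038, against 517 and 6328 and against 1313 and 3701. The cause was not tested. Insig1 was called in 35 of 35, 36 of 36 and 34 of 35 alternatives in controls, at 5 MPa and at 50 MPa, and Srebf2 in 33, 36 and 32 of them. With the replicate number as a block 7, 7 and 6 genes were called in the tissue comparisons and 0 in each comparison of pressures. Same-numbered libraries did not deviate together (r from -0.29 to 0.17, over 0.1 in 10 of 50 pairs).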
